A study of Mus musculus with 54 samples.

Results

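The miR-106b-25 and miR-106a-363 clusters are the 2 mammalian paralogs of the miR-17-92 microRNA cluster. Their members here were the 7 mature microRNAs mmu-miR-106b-5p, mmu-miR-106b-3p, mmu-miR-93-5p and mmu-miR-25-3p of the first cluster and mmu-miR-106a-5p, mmu-miR-20b-5p and mmu-miR-363-3p of the second, written below without the mouse prefix. They were chosen by name and not by a measured value, 7 of the 1966 mature microRNA names in the liver and epididymal fat count tables and 1 of the 79 in the sperm table. The small RNA libraries came from the epididymal fat pad (eWAT, a white adipose depot), liver and sperm of F0 wild-type C57BL/6 males, 6 for each tissue on each diet and 54 in all. HFLF mice received 9 weeks of high-fat diet and then 9 weeks of low-fat diet, HF mice 18 weeks of high-fat diet, and LF mice 18 weeks of low-fat diet. Chow was fed up to week 6 of life, and tissues were taken in week 24. One abbreviation in the diet description, HLD, was taken to mean the high-fat diet. The labels number the mice of a diet but do not state how libraries relate to them, so p-values measure only the spread between libraries, which may be technical. The column codes for LF and HFLF are not defined in the sources used here, so the assignment of these diets rests on reading C as LF and R as HFLF.

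MicroRNAs are short RNAs that guide Argonaute proteins to messenger RNAs, and the seed, bases 2 to 8 counted from the 5′ end, carries most of the target recognition. A hairpin precursor is cut into a duplex whose strands are named 5p and 3p, and usually 1 strand, the guide, is kept while the other is degraded. The miR-17 family is known for promoting the cell cycle and limiting apoptosis, in part by repressing the cell cycle inhibitor Cdkn1a and the pro-apoptotic Bcl2l11. In mice, miR-106b and miR-93 have been reported to restrain brown adipocyte differentiation.

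All 7 members had a mature sequence in RefSeq (build GRCm38.p6). They are printed 5′ to 3′ with the seed in capitals, because the seeds split the members into families that cut across the clusters.
miR-106b-5p: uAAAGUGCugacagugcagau
miR-93-5p: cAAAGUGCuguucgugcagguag
miR-106a-5p: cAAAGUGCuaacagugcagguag
miR-20b-5p: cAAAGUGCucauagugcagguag
miR-25-3p: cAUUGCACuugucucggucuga
miR-363-3p: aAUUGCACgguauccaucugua
miR-106b-3p: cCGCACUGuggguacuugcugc
The first 4 share the seed AAAGUGC of the miR-17 family, miR-25-3p and miR-363-3p share the seed AUUGCAC of the miR-92 family, and miR-106b-3p had a seed found in no other RefSeq mouse name. The members were set against 3 guide strands of miR-17-92, on chromosome 14, that have the same seeds.
miR-17-5p: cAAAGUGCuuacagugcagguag
miR-20a-5p: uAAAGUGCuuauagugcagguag
miR-92a-3p: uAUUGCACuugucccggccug
Counting positions from 1 at the 5′ end and giving the base of the first-named microRNA first, miR-17-5p and miR-106a-5p differ by 1 substitution, U10A, and miR-20a-5p and miR-20b-5p by 2, U1C and U10C. How the authors' counting divided reads between such near-identical sequences is not given in the sources used here, so the low counts of miR-106a-5p and miR-20b-5p are uncertain.

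The hairpins Mir106b, Mir93 and Mir25 lie within 498 bases on the minus strand at chr5:138165321-138165818 (GRCm38.p6). In GENCODE vM21 all 3 are inside Mcm7, on the same strand; Mcm7 encodes a subunit of the replicative helicase. Mir106b is intronic in both Mcm7 transcripts that span it, and Mir93 and Mir25 are intronic in 2 and exonic in 1 of the 3 that span them. The 6 hairpins of the other cluster lie within 875 bases on the minus strand at chrX:52741693-52742567, and of these the Mir106a hairpin overlaps the end of the non-coding gene Kis2. That cluster also encodes copies of miR-19b-3p and miR-92a-3p, whose mature sequences are the same as those from miR-17-92, so the part of their counts that came from the X chromosome cannot be told apart.

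The eWAT libraries held 7481038 to 13022536 counts and the liver libraries 7017730 to 14394584. Levels are CPM, counts per 1e+06 counts of the library total scaled by TMM (trimmed mean of M-values) within a tissue, so CPM of the 2 tissues are not on 1 scale. The summed hepatocyte markers ran from 291 to 10419 CPM in eWAT libraries and from 341730 to 664358 CPM in liver libraries. The epithelial miR-200 list summed to 8534 CPM in eWAT LF 4, 4177 in LF 5, 2019 in HFLF 4 and 1337 in LF 3, against 74.1 to 484 CPM in the other 14 eWAT libraries. Every pair of eWAT or liver libraries of 1 diet differed by more than counting noise.

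The autosomal cluster supplied nearly all of the members' reads. Its 4 members summed to 2557 to 3850 CPM per eWAT library and 1394 to 1738 CPM per liver library. miR-93-5p, a miR-17 family guide, ranked 52nd by mean CPM among all detected names in eWAT and also 52nd in liver. miR-25-3p, the guide strand of Mir25, ranked 60th in eWAT and 61st in liver. miR-106b-5p ranked 108th in eWAT and 107th in liver, and its partner strand miR-106b-3p 133rd and 141st in the same order. The rank of each member of the autosomal cluster was thus close to the same in both tissues.

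The X-linked cluster had low counts in eWAT and was near the detection limit in liver. Its 3 members summed to 37 to 137 counts per eWAT library and to 1 to 14 counts per liver library. miR-363-3p had 15 to 52 counts in eWAT libraries and 0 to 12 in liver libraries. miR-20b-5p had 10 to 69 counts in eWAT and 0 to 12 in liver. miR-106a-5p had 0 to 20 counts in eWAT and 0 to 3 in liver, and was at 0 in 3 eWAT libraries and 7 liver libraries. Against the 3-count limit that a count of 0 allows, 0.239 to 0.402 CPM in eWAT and 0.199 to 0.451 CPM in liver, a level below that was not detectable at this depth, and these limits cover counting error alone. Over all libraries, miR-106a-5p counts came to 1.14% of miR-17-5p counts in eWAT, 114 against 10042, and to 0.198% in liver, 20 against 10107. The partner strands miR-106a-3p, miR-18b-3p and miR-20b-3p were at 0 in every liver library, where the limits just given apply.

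**Figure D1:**
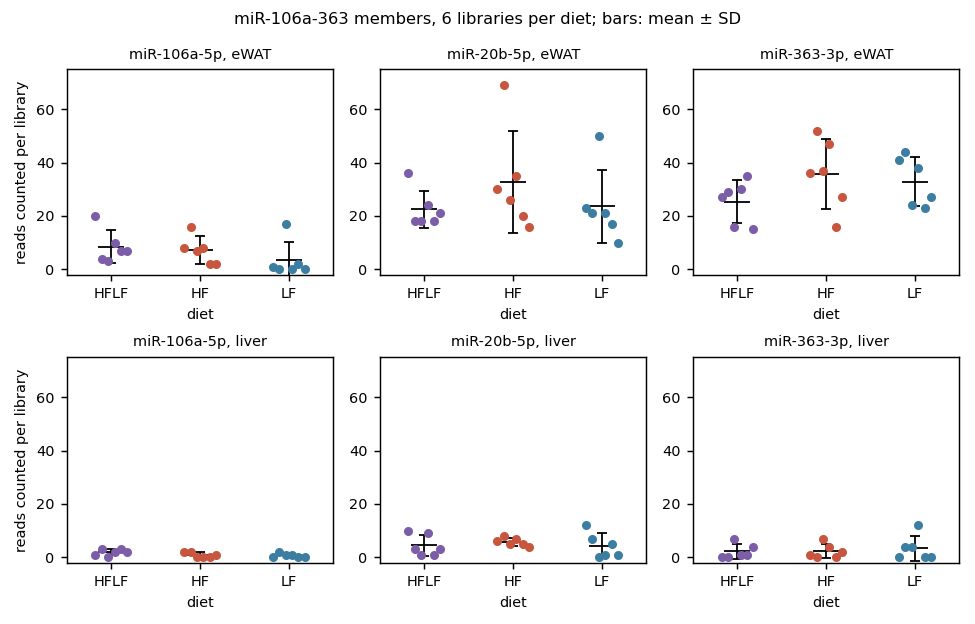
Reads counted per library for the 3 miR-106a-363 members in eWAT (top row) and liver (bottom row), by diet; each point is 1 of 6 libraries, and the bar with whiskers is the mean ± SD. Liver libraries sit at 0 to 12 reads and the highest eWAT library at 69.

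In the fits below, 6 of the 7 members passed the filter on low counts in eWAT and in the fit of both tissues, all but miR-106a-5p, and 4 passed in liver, those of the autosomal cluster. Fold changes come from edgeR's quasi-likelihood test, SE is the standard error of a log2 fold change, and a microRNA counts as called when its p, adjusted by Benjamini-Hochberg across every microRNA tested, is under 0.05.

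The first comparison set the tissues side by side, averaging the diets. Where microRNAs were scaled by TMM over both tissues, miR-363-3p was higher in eWAT than in liver by 2.15 on the log2 scale (SE 0.45, adjusted p = 5.02e-05) and miR-20b-5p by 1.04 (SE 0.29, adjusted p = 0.00174). Both passed the filter on low counts in eWAT but not in liver alone. They entered this fit through the tissue where they are high, so their calls are no independent support for that direction. miR-106b-3p was higher by 0.21 (adjusted p = 0.00414). miR-93-5p was lower in eWAT, at -0.30 (SE 0.06, adjusted p = 2.515e-05), as was miR-106b-5p, at -0.23 (adjusted p = 0.000564), and miR-25-3p did not pass (log2 fold change -0.09, adjusted p = 0.198). So 5 of 6 tested members were called, where 82.7% of all 595 microRNAs were; with DESeq2 the calls for miR-93-5p and miR-106b-5p were lost and 3 members were called. The median log2 fold change was 0.06 over these members and 0.30 over all microRNAs.

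The directions of the abundant members in that comparison depend on the scaling. With total counts as library size, miR-106b-5p, miR-93-5p and miR-25-3p were higher in eWAT, by 1.05, 0.98 and 1.18 on the log2 scale, while the median of all microRNAs moved to 1.56. These 3 members lay below the median of all microRNAs under both scalings. miR-363-3p, miR-20b-5p and miR-106b-3p were higher in eWAT under both. Of these, miR-106b-3p, at 0.21 with TMM, also lay below the median of all microRNAs there, 0.30. As CPM of the library total it averaged 175 in eWAT and 62.4 in liver. Of the library total, miR-93-5p took 1270 to 1816 CPM in eWAT and 624 to 1047 CPM in liver without TMM.

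Of the partner strands in the TMM fit, miR-363-5p was higher in eWAT by 2.71 (adjusted p = 1.307e-05). There miR-25-5p was lower in eWAT, at -0.54 (adjusted p = 0.000606), as was miR-93-3p, at -0.33 (adjusted p = 0.0261). As CPM of the library total both turned direction. On that scale miR-25-5p averaged 6.99 in eWAT and 4.02 in liver, and miR-93-3p 11.3 and 5.69 in the same order. miR-363-5p likewise passed the filter in eWAT and not in liver, so the limit given for miR-363-3p holds for it too. The part of differing cell types in these tissue differences was not tested.

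Ratios within a library do not depend on scaling, and there the members parted from miR-17-92. miR-93-5p exceeded miR-20a-5p, a miR-17-92 guide, by a median of 11.4 fold in eWAT and 3.51 fold in liver (n = 18 each). The lowest eWAT library had a ratio of 4.81 and the highest liver library 4.40, so the tissues did not overlap. miR-25-3p stood at 0.570 ± 0.0900 of miR-92a-3p in eWAT, with a lowest library of 0.395, and at 0.136 ± 0.0203 in liver, with a highest library of 0.196. miR-106b-5p exceeded miR-17-5p 5.17 ± 1.26 fold in eWAT and 2.28 ± 0.385 fold in liver, with some overlap: the lowest eWAT library was at 2.69 and the highest liver library at 3.23. These ratios are given as a description with no test. All 6 guide strands of miR-17-92 were called lower in eWAT in the TMM fit, where 35% of all 595 microRNAs were, from -0.66 for miR-18a-5p to -2.22 for miR-19a-3p on the log2 scale, among them miR-92a-3p at -2.17 (adjusted p = 4.38e-25), miR-20a-5p at -1.87 (adjusted p = 1.09e-20) and miR-17-5p at -1.38 (adjusted p = 2.98e-17); with total counts miR-17-5p was at -0.08 and not called. As CPM of the library total, miR-18a-5p turned direction, with means of 10.6 in eWAT and 6.74 in liver.

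Summed over the 7 names with the seed AAAGUGC, miR-93-5p supplied 75.6% ± 3.50 of the reads in eWAT and 65.0% ± 2.16 in liver (mean ± SD, n = 18 each). miR-106b-5p supplied 13.9% ± 1.44 in eWAT and 11.4% ± 0.869 in liver. miR-20b-5p and miR-106a-5p together with miR-17-5p and miR-20a-5p made up the remainder, with miR-6383 at 0 reads in all libraries. Among the 6 names with the seed AUUGCAC, miR-25-3p supplied 35.5% ± 3.68 in eWAT and 11.9% ± 1.53 in liver, and miR-363-3p 0.0883% ± 0.0264 and 0.00666% ± 0.00893 in the same order. miR-92a-3p was the main name of that family in both tissues, at 62.9% ± 4.11 in eWAT and 87.9% ± 1.57 in liver. The autosomal cluster therefore carried most reads of the first seed family and a minority of the second.

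**Figure D2:**
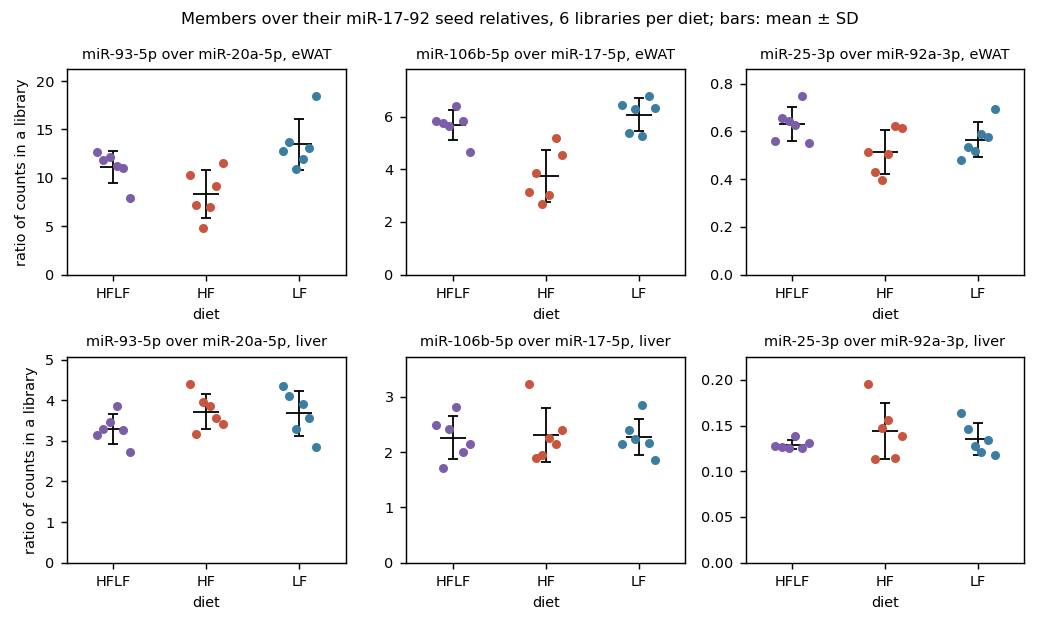
Ratio of read counts within a library of 3 members over the miR-17-92 strand with the same seed, by diet, in eWAT (top row) and liver (bottom row); points are libraries and bars the mean ± SD. All ratios have higher means in eWAT, and within eWAT the HF libraries have the lowest means.

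Diet was compared within eWAT next. In the comparison of HF against LF, which asks what a sustained high-fat diet does, 0 of 6 tested members were called, where 34.9% of all 571 microRNAs were. Unadjusted, 1 of the 6, miR-93-5p, had p below 0.05, and over all microRNAs 257 did. miR-93-5p ran from 1115 to 1678 CPM in HF libraries, with a median of 1365, and from 1503 to 1864 CPM in LF libraries, with a median of 1650. It was lower in 5 of 6 HF libraries than the LF mean, but HF 5 and HF 6 lay within the LF range (log2 fold change -0.24, SE 0.10, adjusted p = 0.0787).

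miR-106b-5p ran from 190 to 290 CPM in HF libraries, median 250, and from 235 to 321 CPM in LF libraries, median 299. The groups overlapped and the difference was not called (log2 fold change -0.23, SE 0.11, adjusted p = 0.119). With RLE factors both miR-93-5p, at -0.34 (adjusted p = 0.0148), and miR-106b-5p, at -0.33 (adjusted p = 0.0300), were called lower in HF, and likewise with DESeq2 (adjusted p = 0.0266 and 0.0419). Without LF 6, miR-106b-5p was also called (adjusted p = 0.0404). With total counts they stood at 0.05 and 0.06 and neither was called, so the direction of both depends on the scaling.

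miR-25-3p ran from 930 to 1487 CPM in HF libraries and from 1060 to 1621 CPM in LF libraries, overlapping over most of the range (log2 fold change -0.13, SE 0.13, adjusted p = 0.452). miR-106b-3p ran from 148 to 202 CPM in HF libraries and from 152 to 189 in LF libraries (log2 fold change 0.08, SE 0.10, adjusted p = 0.581); it was called higher with total counts (0.38, adjusted p = 0.0147) and stood below 0 with RLE factors. Of the X-linked members, miR-20b-5p averaged 3.16 ± 1.26 CPM in HF and 2.40 ± 1.02 CPM in LF libraries (SD, n = 6 each; log2 fold change 0.40, SE 0.29, adjusted p = 0.305). miR-363-3p averaged 3.57 ± 0.929 CPM in HF and 3.53 ± 1.08 CPM in LF libraries (log2 fold change 0.02, SE 0.28, adjusted p = 0.963). Neither X-linked member separated the diets.

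Some miR-17-92 relatives were called in the same libraries, in the direction of higher. miR-17-5p was higher in HF than in LF eWAT by 0.51 on the log2 scale (SE 0.14, adjusted p = 0.0101, in 6 of 6 HF libraries) and miR-20a-5p by 0.49 (SE 0.15, adjusted p = 0.0172, in 5 of 6). They were the 2 called of the 6 miR-17-92 guides, a share close to the 34.9% of all microRNAs called in either direction in this comparison. Of all microRNAs, 19.6% were called higher. The miR-20a-5p call was lost without LF 6 (adjusted p = 0.0574), without LF 4, LF 5 and HFLF 4 (0.0690), with DESeq2 (0.0836) and with RLE factors (0.0559). Both were lost with no filter on low counts, at 0.0567 for miR-17-5p and 0.0688 for miR-20a-5p, and when HF and LF alone were fitted, at 0.0513 and 0.0636.

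Within a library, the miR-106b-5p to miR-17-5p ratio was 2.69 to 5.18 in HF libraries (mean 3.74 ± 0.974), against 5.25 to 6.78 in LF libraries (6.08 ± 0.614; SD, n = 6 each). All HF libraries lay below all LF libraries in this ratio of microRNAs that share a seed. The miR-93-5p to miR-20a-5p ratio was 4.81 to 11.5 in HF and 10.9 to 18.5 in LF libraries, with a small overlap. In HFLF libraries the ratios were 4.66 to 6.41 and 7.95 to 12.7. The ratios were looked at after the fits were seen and are given with no test.

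Marker lists moved with diet in these bulk libraries, in which fewer cells of a type and less RNA per cell cannot be told apart. In HF against LF eWAT, 6 of 6 adipocyte markers were lower (sum 54997 to 151238 CPM in HF, 178874 to 391700 CPM in LF) and 5 of 8 leukocyte markers were higher (sum 2467 to 4876 CPM in HF, 1884 to 2733 CPM in LF). The adipocyte list held miR-143-3p, miR-145a-5p, miR-30a-5p, miR-30c-5p, miR-193b-3p and miR-378a-3p. On the liver's own scale it summed to 40963 to 51395 CPM there, so these strands are not particular to adipocytes. The 5 tested epithelial markers of 6 were lower (78.5 to 147 CPM in HF, 102 to 8534 CPM in LF). Likewise 2 of 4 erythroid, 2 of 4 hepatocyte, 3 of 4 striated muscle and 2 of 3 male germ cell markers were lower, and no marker of any list was at 0 in all libraries. Over all 571 microRNAs, 19.6% were called higher and 15.2% lower in this comparison. The part of these shifts in the members' values was not tested.

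**Figure D3:**
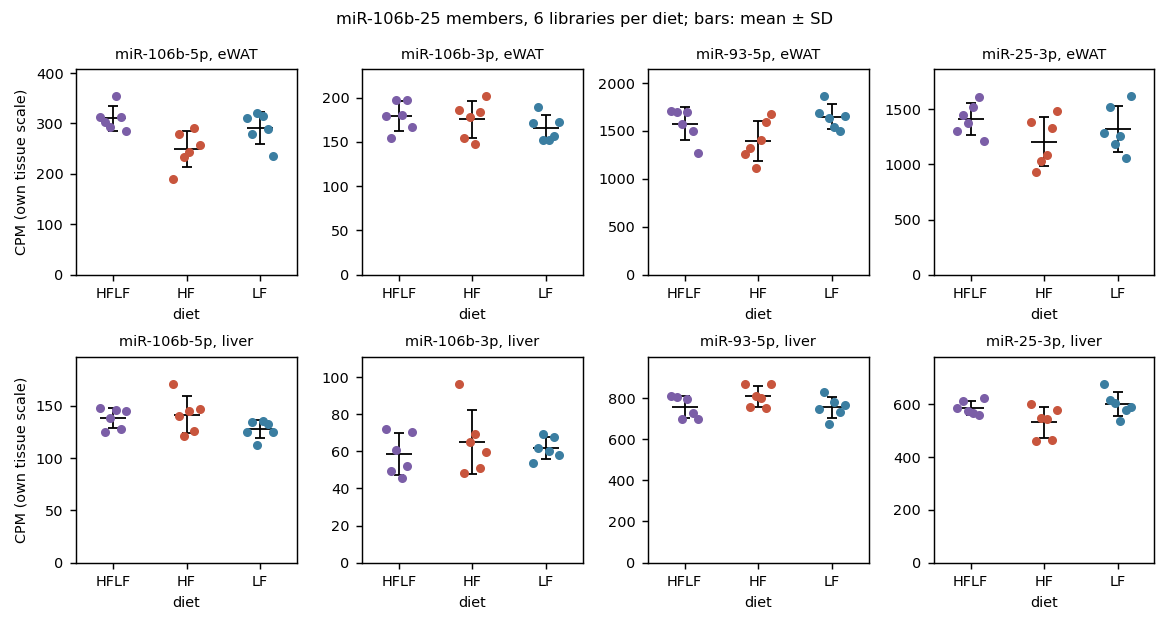
CPM of the 4 miR-106b-25 members by diet in eWAT (top row) and liver (bottom row), each row on its own tissue scale; points are libraries and bars the mean ± SD of 6. Diet groups overlap in every panel, and miR-106b-5p in eWAT comes closest to separation, with HFLF at 284 to 354 and HF at 190 to 290 CPM.

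HFLF against HF addresses what changes after the return to low-fat food; it shares the HF libraries with the comparison above. Here miR-106b-5p was the 1 of 6 tested members called, against 25.9% of all 571 microRNAs. It ran from 284 to 354 CPM in HFLF libraries, median 308, and from 190 to 290 CPM in HF libraries, median 250. Of all libraries of these diets, HFLF 6 at 284 CPM and HF 5 at 290 CPM crossed over and the others were separate (log2 fold change 0.32, SE 0.11, adjusted p = 0.0423, higher in 6 of 6 HFLF libraries).

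The call for miR-106b-5p was close to the threshold. It was kept with DESeq2 (log2 fold change 0.37, adjusted p = 0.0193) and RLE factors (0.0231), and lost with total counts (0.11, adjusted p = 0.550), with no filter on low counts (0.166) and when HFLF and HF alone were fitted (0.0538). It was also lost when any 1 HFLF or HF library other than HF 5 was left out, with adjusted p up to 0.179 without HFLF 4, and without the epithelial-rich LF 4, LF 5 and HFLF 4 together (0.130). In HFLF against HF, 5 of 6 adipocyte markers were higher (144732 to 229047 CPM in HFLF, 54997 to 151238 CPM in HF) and 2 of 8 leukocyte markers lower (2289 to 3759 CPM in HFLF, 2467 to 4876 CPM in HF). There 2 of 4 erythroid and 1 of 4 striated muscle markers were higher, and the part of these lists in the result was not tested. Over all 571 microRNAs, 9.63% were called higher and 16.3% lower in HFLF against HF.

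The other members did not pass in HFLF against HF. miR-25-3p ran from 1213 to 1613 CPM in HFLF libraries and from 930 to 1487 CPM in HF libraries (log2 fold change 0.23, SE 0.13, adjusted p = 0.203). miR-93-5p ran from 1268 to 1706 CPM in HFLF libraries and from 1115 to 1678 CPM in HF libraries (0.17, SE 0.10, adjusted p = 0.228). miR-106b-3p, cut from the same hairpin as miR-106b-5p, was at 0.03 (SE 0.10, adjusted p = 0.838). miR-20b-5p and miR-363-3p were at -0.43 (SE 0.29) and -0.41 (SE 0.28), with adjusted p of 0.310 each. None of the 6 miR-17-92 guides was called; miR-17-5p was at -0.33 (adjusted p = 0.0944) and miR-20a-5p at -0.31 (adjusted p = 0.143).

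HFLF against LF gave no called microRNA in eWAT, 0 of 6 members and 0% of 571, with 65 of 571 at an unadjusted p below 0.05 and 8 called by DESeq2. The members' log2 fold changes lay between -0.39 for miR-363-3p and 0.12 for miR-106b-3p, with a median of 0.03. The 95% interval of miR-93-5p was -0.28 to 0.15 and that of miR-106b-5p -0.14 to 0.32, which leaves room for differences of those sizes.

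**Figure D4:**
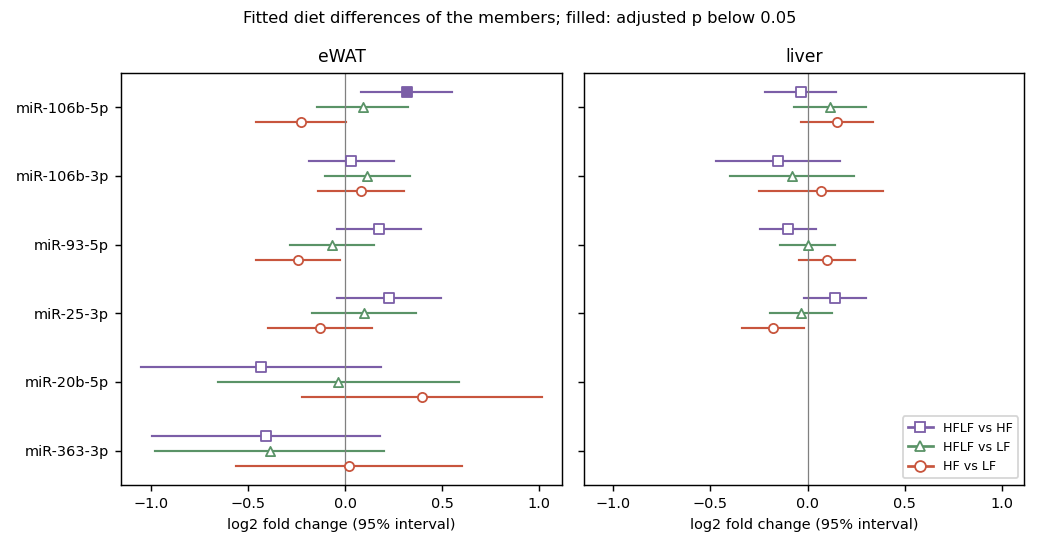
Fitted log2 fold change of each tested member with its 95% interval, for the 3 diet comparisons in eWAT (left) and liver (right); a filled marker is an adjusted p below 0.05. The one filled marker is miR-106b-5p in HFLF against HF eWAT at 0.32, and miR-20b-5p and miR-363-3p have the widest intervals.

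In liver no member was called in any diet comparison. HF against LF called 5.69% of the 422 microRNAs tested and 0 of 4 members. miR-93-5p ran from 754 to 869 CPM in HF libraries and from 674 to 831 CPM in LF libraries (log2 fold change 0.10, SE 0.07, adjusted p = 0.431). miR-106b-5p ran from 121 to 171 CPM in HF and from 113 to 136 CPM in LF libraries (0.15, SE 0.09, adjusted p = 0.338). Both were higher on average in HF liver, without passing; with total counts, which moved the median of all microRNAs to 0.18, miR-93-5p was called at 0.30 (adjusted p = 0.0426).

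miR-25-3p lay lower on average in HF liver, without passing. It ran from 461 to 601 CPM in HF libraries and from 539 to 677 CPM in LF libraries (log2 fold change -0.18, SE 0.08, adjusted p = 0.167). Its unadjusted p in edgeR's fit was 0.0321, and 93 of 422 microRNAs had one below 0.05. Of the miR-17-92 guides, miR-92a-3p was at -0.25 (adjusted p = 0.0501), and miR-17-5p and miR-20a-5p at 0.13 and 0.07. In HFLF against HF liver these 3 were at 0.28 (adjusted p = 0.109), -0.0015 and 0.08. None of the 6 miR-17-92 guides was called in a liver diet comparison. The within-library ratio of miR-25-3p to miR-93-5p, which come from adjacent hairpins of 1 precursor, was 0.713 to 0.895 in HFLF liver, 0.608 to 0.692 in HF liver and 0.690 to 0.904 in LF liver. The HF values lay below all HFLF values and overlapped the LF values at their edge, which is a description with no test. miR-106b-3p ran from 48.5 to 96.4 CPM in HF and from 53.6 to 69.3 CPM in LF libraries (0.07, SE 0.15, adjusted p = 0.861).

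HFLF against LF and HFLF against HF called 0 of 4 members in liver and 0% of 422 microRNAs each, with 51 and 65 at an unadjusted p below 0.05; DESeq2 called 4 and 15. In HFLF against LF the members' log2 fold changes ran from -0.08 for miR-106b-3p to 0.12 for miR-106b-5p, and in HFLF against HF from -0.15 for miR-106b-3p to 0.14 for miR-25-3p. The 95% interval of miR-93-5p in HFLF against LF was -0.14 to 0.14. With DESeq2, 0 members were called in each of these liver comparisons as well. Of the marker lists, 1 of 4 hepatocyte markers was higher and 1 lower in HF against LF liver (sum 341730 to 481044 CPM in HF, 454357 to 664358 CPM in LF), and no leukocyte, erythroid, epithelial, adipocyte, striated muscle or male germ cell marker was called in a liver comparison. In HF against LF liver, 2.61% of all microRNAs were called higher and 3.08% lower. The part of the hepatocyte markers was not tested.

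The diet effect itself was then compared between the tissues by an interaction term over the 36 liver and eWAT libraries. For HF against LF, the effect on miR-106b-5p was lower in eWAT than in liver (difference of log2 fold changes -0.44, 95% interval -0.73 to -0.16, SE 0.14, adjusted p = 0.0196) and that on miR-93-5p likewise (-0.41, SE 0.14, adjusted p = 0.0328). These were the 2 called of 6 members, where 26.7% of 595 microRNAs were called in either direction, close to the members' share, and 15% were called lower. Both calls were lost with total counts (-0.29 and -0.25, adjusted p = 0.237 and 0.158) and with no filter on low counts (0.114 and 0.0873). The miR-93-5p call was lost in 11 of the 36 fits that left out 1 library, with adjusted p up to 0.0719: those without liver LF 3, LF 4, HF 3, HF 5 or HF 6, and those without eWAT LF 2, LF 3, LF 6, HF 1, HF 2 or HF 3. The miR-106b-5p call was lost in none of these 36. miR-25-3p was at -0.01 (95% interval -0.34 to 0.32, adjusted p = 0.984).

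For HFLF against HF, the interaction called 0 of 6 members, where 9.58% of 595 microRNAs were called and 139 had an unadjusted p below 0.05. miR-106b-5p was at 0.40 (SE 0.14, adjusted p = 0.0722), and it was called (adjusted p = 0.0354) when eWAT HF 5 was left out. For HFLF against LF no microRNA was called, 0% of 595, with 69 at an unadjusted p below 0.05.

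The partner strands of these hairpins were measured as well. Mir106b (chr5:138165737-138165818) and Mir25 (chr5:138165321-138165404), both on the minus strand, are printed with both mature strands in capitals, the 5p strand first, because the results below turn on the balance of these strands.
Mir106b: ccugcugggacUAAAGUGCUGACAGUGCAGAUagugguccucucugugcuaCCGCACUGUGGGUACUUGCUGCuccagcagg
Mir25: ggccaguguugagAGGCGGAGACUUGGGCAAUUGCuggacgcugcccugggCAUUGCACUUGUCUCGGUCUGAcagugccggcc
From Mir106b both strands accumulated, with 5p at 1.65 ± 0.295 times 3p in eWAT and 2.25 ± 0.386 times in liver (mean ± SD, n = 18 each). From Mir93 and Mir25 the guide exceeded its partner far more, miR-93-5p over miR-93-3p by 150 ± 57.1 fold in eWAT and 147 ± 45.0 fold in liver, and miR-25-3p over miR-25-5p by 224 ± 96.1 fold in eWAT and 159 ± 58.5 fold in liver.

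The miR-106b strand ratio passed no comparison of diets by a 2-sided exact permutation test on log2 ratios. In eWAT it was 1.74 ± 0.194 in HFLF, 1.44 ± 0.290 in HF and 1.78 ± 0.304 in LF libraries (SD, n = 6 each). In liver it was 2.43 ± 0.432 in HFLF, 2.26 ± 0.427 in HF and 2.08 ± 0.256 in LF libraries. The exact p-values, adjusted over the 6 comparisons, ran from 0.221 to 0.875, and the smallest unadjusted exact p was 0.0628, for HFLF against HF in eWAT, in a design whose smallest possible p is 0.00216. 

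The passenger strand miR-25-5p, the degraded partner of miR-25-3p, had a called difference between diets, at a low level. It was the 1 called of 3 tested partner strands in HFLF against HF eWAT, where 25.9% of all 571 microRNAs were called. It had 29 to 58 counts in HFLF eWAT libraries, 66 to 120 in HF and 32 to 105 in LF. As levels, it ran from 3.10 to 5.86 CPM in HFLF libraries, median 4.60, and from 7.45 to 11.1 CPM in HF libraries, median 9.35. All HFLF libraries lay below all HF libraries. The share of all microRNAs with such a separation is not given here. The mean level was 4.59 ± 1.11 CPM in HFLF eWAT, against 9.32 ± 1.41 CPM in HF eWAT (SD, n = 6 each). This was a log2 fold change of -1.02 in edgeR's fit (SE 0.21, adjusted p = 0.00295). LF libraries, at 3.82 to 9.06 CPM, overlapped both; HF against LF was at 0.51 (SE 0.21, adjusted p = 0.0713) and HFLF against LF at -0.51 (SE 0.21, adjusted p = 0.396).

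The HFLF against HF call for miR-25-5p was kept under every alternative run, including total counts, no filter, each left-out library and the removal of LF 4, LF 5 and HFLF 4, with fold changes from -1.23 to -0.94 and adjusted p up to 0.0157. Within a library, miR-25-3p exceeded miR-25-5p by 241 to 420 fold in HFLF eWAT and by 92.7 to 179 fold in HF eWAT, with LF libraries at 131 to 327 fold. These ratios are given with no test. The called adipocyte and leukocyte markers given above for HFLF against HF lie in the same libraries, and their part was not tested.

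In liver, miR-25-5p passed no diet comparison. It ran from 1.36 to 3.76 CPM in HF libraries and from 3.84 to 5.63 CPM in LF libraries. The groups did not overlap, by a narrow margin, at 14 to 34 counts in HF and 31 to 73 in LF. The share of liver microRNAs with such a separation is not given here. In edgeR's fit the log2 fold change was -0.75 (SE 0.26, adjusted p = 0.0802), where 5.69% of liver microRNAs were called. HFLF against HF was at 0.72 (SE 0.26, adjusted p = 0.166). The interaction of tissue and diet was called for miR-25-5p both in HF against LF, at 1.18 (eWAT minus liver, SE 0.34, adjusted p = 0.00956), and in HFLF against HF, at -1.69 (SE 0.34, adjusted p = 0.00287). Both kept their call and direction under all alternatives run, with ranges of 1.03 to 1.37 and -1.88 to -1.56; these 2 comparisons share the HF libraries. Over all 595 microRNAs, these interactions called 26.7% and 9.58% in the same order.

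miR-93-3p, the passenger of miR-93-5p, passed in no diet comparison: in eWAT HF against LF it was at 0.39 (SE 0.21, adjusted p = 0.161) and in liver at -0.47 (SE 0.24, adjusted p = 0.262). Of the other strands of the X-linked cluster, miR-363-5p alone passed the filter, in eWAT, and it was called in none of the 3 diet comparisons there.

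**Figure D5:**
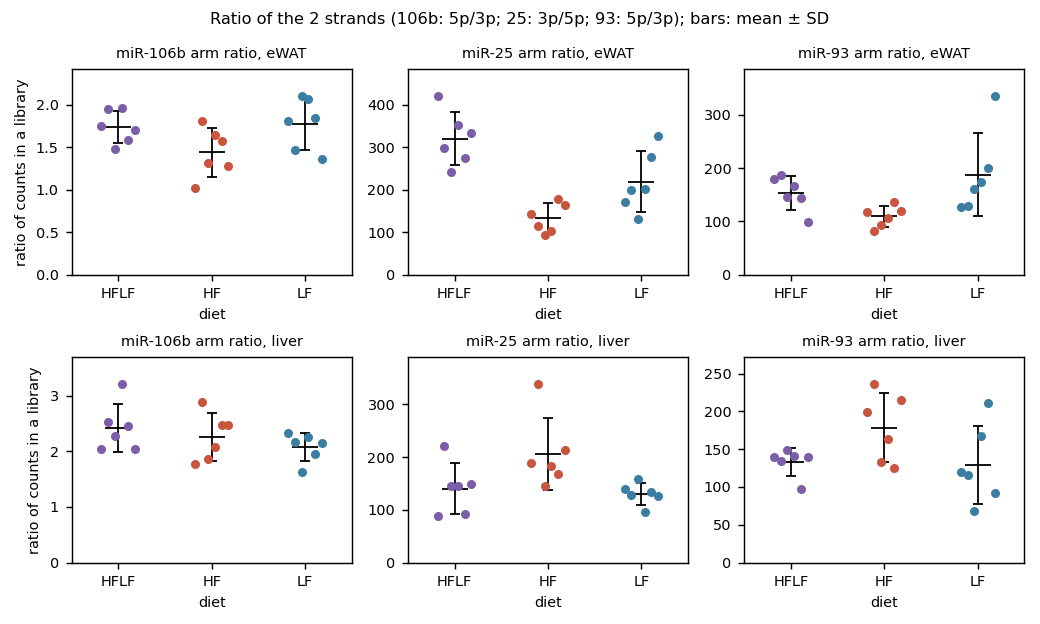
Ratio of the read counts of the 2 strands of Mir106b (5p over 3p), Mir25 (3p over 5p) and Mir93 (5p over 3p) by diet in eWAT (top row) and liver (bottom row); points are libraries and bars the mean ± SD of 6. For Mir25 in eWAT, all HFLF libraries (241 to 420) lie above all HF libraries (92.7 to 179), and the Mir106b groups overlap.

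In sperm the table held 1 member, miR-106a-5p, on a log2 scale whose transformation is not given in the sources used here; the other 6 members are not listed in it and have no value. miR-106a-5p was at 1.72, the lowest value of the table, in all 6 HF and all 6 LF libraries. In HFLF libraries it was at that value in 3 and above it in 3, at 2.26, 2.52 and 2.73. The mean of HFLF lay 0.39 above that of HF and that of LF on the deposited scale, but all 12 HF and LF values are the table's lowest, so this is no measured size of a difference. limma's adjusted p, 0.126 against HF and 0.315 against LF, rests on those values and says nothing of a difference below them. limma called 0% of the 79 microRNAs in HFLF against LF (11 at an unadjusted p below 0.05) and in HF against LF (24), and 1.27% in HFLF against HF. No fold was formed for HF against LF, with both groups at the lowest value.

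The table gives no count for miR-106a-5p, so the depth behind these values is unknown, and a microRNA that differs from it by 1 base, miR-17-5p, is not listed there. Of the miR-17-92 relatives, miR-19a-3p and miR-19b-3p are listed and were called in none of the 3 comparisons. miR-19b-3p had medians of 14.2 in HFLF, 13.4 in HF and 13.8 in LF libraries on the deposited scale (n = 6 each), against 1.99, 1.72 and 1.72 for miR-106a-5p.

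Over the 18 eWAT libraries, pooled over diets, the Pearson r of log2 CPM was 0.61 between miR-93-5p and miR-25-3p, 0.55 between miR-106b-5p and miR-93-5p, and -0.13 between the strands miR-106b-5p and miR-106b-3p. Over the 18 liver libraries it was -0.01, 0.52 and 0.42 for the same pairs. miR-25-3p and the X-linked miR-20b-5p had an r of -0.63 in eWAT. These values describe points that share library scaling and diet group, and carry no test.

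Likeness by the same measure was sought among tested microRNAs other than the members and their partner strands. Those most like miR-93-5p in eWAT were miR-30c-2-3p (r = 0.85), miR-30a-3p (0.81) and miR-345-3p (0.80), and in liver miR-148b-3p (0.71), miR-103-3p (0.67) and miR-1839-5p (0.67). Those most like miR-106b-5p in eWAT were miR-107-3p (0.84), miR-101b-3p (0.76) and miR-344-3p (0.76), and in liver miR-142a-5p (0.72), miR-144-3p (0.62) and miR-144-5p (0.62). miR-142a is a leukocyte marker and miR-144 an erythroid marker, so the liver list for miR-106b-5p held blood cell strands. By rank (Spearman) these 3 values were lower, at 0.65, 0.52 and 0.42. Liver HF 1 stood apart for miR-106b-5p, at 171 CPM against at most 147 CPM in the other liver libraries. The part of blood cells was not tested. For miR-20b-5p in eWAT they were miR-19b-3p (0.77), miR-19a-3p (0.71) and miR-574-3p (0.66). The first of these is also encoded in the same X-linked cluster and in miR-17-92. Each r is over 18 libraries, picked as the highest among 562 candidates in eWAT or 416 in liver.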

How the data were processed

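The NEXTFLEX Small RNA-seq Kit v3 was used for the libraries, per the labels' protocols; the submitters' processing notes name cutadapt, Bowtie and GRCm38.p6, with no versions. The microRNA reference, the counting program and the handling of reads that match several names are not given in the sources used here. The tables deposited by the authors hold raw counts per mature name for eWAT and liver, and log2 values of 79 names for sperm, whose choice and scale are not given in the sources used here. A further 18 sperm columns that fit no library listed were left out.

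Counts were fitted per tissue with edgeR 4.0.16 (R 4.3.3): filterByExpr with a minimum count of 10, TMM factors, all 3 diets in 1 quasi-likelihood fit, 2-sided tests and Benjamini-Hochberg adjustment over 571 eWAT or 422 liver microRNAs. Interactions and tissue differences came from 1 fit of 36 libraries (595 microRNAs), taken as independent. Sperm values were fitted with limma 3.58.1 (eBayes with trend). Likeness used log2 CPM with prior count 2. A library counts toward a direction when it lies beyond the mean of the other diet. Every member is described, with values for called partner strands and for miR-17-92 guides; miR-93-3p, the sperm values of miR-19b-3p and the ratio of miR-25-3p to miR-93-5p were added after their values were seen. Likeness named the 3 highest Pearson r. The fit was tested on simulated data. For eWAT HF against LF it recovered 61.2% of log2 changes of 1 and 14.6% of changes of 0.5 (571 microRNAs), and for liver 80% and 47.4% (422 microRNAs).

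Alternatives were DESeq2 1.42.0, RLE factors, total counts, no filter, fits of the compared diets alone, a replicate block, each library left out, the removal of eWAT LF 4, LF 5 and HFLF 4, medians for the strand ratio, and limma without trend or with a filter on low values. Members, lists and alternatives were chosen with earlier results of these data known.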

Additional observations from a re-analysis of the deposited data

Results flagged for a closer look

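Of 55 groups of 6 libraries checked on the log2 scale for a library far from the rest, 3 had one; chance flags about 1 in 20. miR-106a-5p was at 1.47 CPM in eWAT LF 3, where the other 5 LF libraries lay between 0 and 0.239 CPM, and it had 17 reads there. miR-363-3p was at 1.805 CPM in eWAT HF 5, where the others lay between 3.25 and 4.14 CPM. miR-25-5p was at 1.36 CPM in liver HF 2, where the others lay between 2.70 and 3.76 CPM.

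The diet effect of HF against LF differed between eWAT and liver by edgeR's interaction test for miR-106b-5p (eWAT minus liver -0.44), miR-93-5p (-0.41) and the passenger strand miR-25-5p (1.18). In the tissues' own fits, miR-106b-5p was at -0.23 in eWAT and 0.15 in liver, miR-93-5p at -0.24 and 0.10, and miR-25-5p at 0.51 and -0.75, none of them called. The effect of HFLF against HF differed for miR-25-5p (-1.69), at -1.02 in eWAT and 0.72 in liver. Over all 595 microRNAs, the interaction called 26.7% for HF against LF and 9.58% for HFLF against HF. Adipocyte, leukocyte and epithelial markers were called between diets in eWAT, and none of these was called in liver. In HF against LF, 34.9% of all eWAT microRNAs and 5.69% of all liver microRNAs were called. The part of these markers in the differences was not tested.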

How the results depend on the processing

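Total counts as library size moved the median log2 fold change of all microRNAs by over 0.1: to 0.32 from 0.03 in eWAT HF against LF, to -0.29 from -0.09 in eWAT HFLF against HF, to 0.11 from 0.00 in eWAT HFLF against LF, to 0.18 from -0.01 in liver HF against LF, to 0.13 from -0.06 in the HF against LF interaction, to -0.10 from 0.08 in the HFLF against HF interaction, and to 1.56 from 0.30 between tissues, where RLE factors gave 0.50. Calls in eWAT HF against LF then split into 205 higher and 53 lower, and with DESeq2 into 98 and 115, in place of 112 and 87, in eWAT HFLF against HF into 25 and 138, in place of 55 and 93, and in liver HF against LF into 51 and 10, in place of 11 and 13. The interaction calls split into 88 and 60, in place of 70 and 89, for HF against LF and into 11 and 28, in place of 37 and 20, for HFLF against HF. Members called with total counts were 1 in liver HF against LF, 1 in eWAT HF against LF, 0 in eWAT HFLF against HF and 0 in the HF against LF interaction. Signs turned with total counts in liver HF against LF for miR-25-3p (0.0106) and in liver HFLF against LF for miR-106b-3p (0.0155) and miR-25-3p (0.0512). In eWAT they turned in HF against LF for miR-106b-5p (0.0634), miR-25-3p (0.168) and miR-93-5p (0.0478), in HFLF against LF for miR-20b-5p (0.0596) and miR-93-5p (0.0252), and in HFLF against HF for miR-106b-3p (-0.166) and miR-93-5p (-0.0226). Between tissues they turned for miR-106b-5p (1.05), miR-25-3p (1.18) and miR-93-5p (0.984), and miR-25-3p turned also with RLE factors (0.101), DESeq2 (0.1009) and no filter (0.079). In eWAT HF against LF, 2 members were called with DESeq2 and 2 with RLE factors, and miR-106b-3p and miR-363-3p turned to -0.0176 and -0.0752 with DESeq2 and to -0.0141 and -0.0769 with RLE factors. In eWAT HFLF against HF, 0 members were called with no filter, without LF 4, LF 5 and HFLF 4, with both diets alone and with the replicate block. No filter left 0 called in the HF against LF interaction, and 3 between tissues, as did DESeq2 with 3. Without LF 4, LF 5 and HFLF 4, miR-363-3p stood at -0.0462 in eWAT HF against LF, miR-25-3p at -0.0217 in HFLF against LF and the miR-106b strand ratio at 0.021 in HFLF against LF. The causes were not tested.

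Leaving out 1 library at a time gave 1 to 2 members called in the HF against LF interaction, 0 to 1 in that of HFLF against HF, 0 to 1 in eWAT HF against LF and 0 to 1 in eWAT HFLF against HF. The eWAT HFLF against LF strand ratio ran from -0.0935 to 0.0324. In eWAT, miR-106b-3p ran from -0.0306 to 0.0603 in HFLF against HF, miR-363-3p from -0.108 to 0.191 in HF against LF, and in HFLF against LF miR-106b-5p from -0.003 to 0.118 and miR-20b-5p from -0.187 to 0.209. In liver, miR-106b-3p ran from -0.0654 to 0.159 in HF against LF and from -0.14 to 0.0053 in HFLF against LF, where miR-25-3p ran from -0.0495 to 0.0421 and miR-93-5p from -0.0118 to 0.0486, and miR-106b-5p from -0.0628 to 0.0262 in HFLF against HF. All of these lie near 0.

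Same-numbered libraries of different diets within a tissue did not deviate together. Their correlations ran from -0.776 to 0.706 in eWAT, -0.199 to 0.266 in liver and -0.287 to 0.43 in sperm. The replicate numbers were therefore not taken as a pairing of diets. This does not cover whether liver and eWAT libraries with the same diet and number came from 1 mouse. The main fit of both tissues took its 36 libraries as independent. With the replicate block, miR-106b-5p in eWAT HFLF against HF stood at 0.32 (adjusted p = 0.0753, edgeR) and miR-20b-5p in HFLF against LF at 0.0343. In the sperm table the filter on low values removed miR-106a-5p. Members under the count filter were called in none of the DESeq2 or unfiltered fits. Low counts limit the X-linked members in liver and miR-106a-5p in both tissues.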
